A study of Homo sapiens with 6 samples.

Results

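Small nucleolar RNA (snoRNA) host genes and long intergenic noncoding RNA (LINC) genes were followed in RBM12-depleted iNeurons treated with isoproterenol. The genes were those named SNHG with a number, GAS5 or LINC with a number whose mean over the 6 samples was at least 20 normalized counts. Of the 19823 genes of the table, 367 carried such a name (23 host and 344 LINC genes), and 185 reached the level (19 host and 166 LINC genes). All 185 also passed the filter on low values, more than 5 reads in at least 4 samples, which left 18130 genes for the tests. The level that chose them is a mean over both groups, so their levels are given as a description.

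RNA-seq was carried out on glutamatergic iNeurons derived from the parental WTc11 line, a human induced pluripotent stem cell line, by NGN2 expressed from a doxycycline-inducible construct. All 6 samples carried a CRISPR interference knockdown of RBM12, which encodes an RNA-binding protein. The untreated group and the isoproterenol group held 3 samples each, isoproterenol being an agonist of the beta-adrenergic receptors that raise cAMP. The labels give neither dose nor duration, control guides were not analysed here, and nothing says whether the replicates came from separate cultures, so p-values measure only the spread between these samples.

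Values are read counts divided by a size factor per sample, called normalized counts below. They came from 18116816 to 21488793 reads per sample. RBM12 had 244 to 279 normalized counts in the untreated samples and 195 to 238 after isoproterenol. The 8 neuron markers checked, most of them not particular to glutamatergic neurons, were all listed and summed to between 145663 and 152140 normalized counts per sample. Their means ran from 79.4 to 65418, so the sum does not measure a glutamatergic identity. Of the pluripotency markers the table listed 2 of 5, which summed to between 14.4 and 28.8. Of the dividing cell markers it listed 1 of 4 (112 to 147), and of the astrocyte markers 1 of 3 (90.3 to 134). The 3 inhibitory neuron markers summed to 55.3 to 60.0 in the untreated samples and 66.9 to 79.0 after isoproterenol, and their part in the results below was not tested. No marker (0) passed FDR 0.05 (an adjusted p under 0.05) in limma with or without the replicate block described below. In these bulk samples, a change in the share of a cell type and a change in RNA per cell cannot be told apart.

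SnoRNA host genes are transcribed as long RNAs, and snoRNAs are cut out of their introns after splicing. Box C/D snoRNAs guide 2'-O-methylation and box H/ACA snoRNAs guide pseudouridylation, mostly of ribosomal RNA, while small Cajal body RNAs act on spliceosomal RNAs. The spliced remainder of a host transcript often has no long reading frame and is degraded during translation by nonsense-mediated decay. Several host genes start with a terminal oligopyrimidine tract, as genes for ribosomal proteins do, which ties their RNA to growth signals. LINC names are given to long noncoding RNA genes between other genes, a class joined by position and naming and not by a shared function.

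In RefSeq annotation (GRCh38.p14), all 19 host genes held at least 1 snoRNA or small Cajal body RNA within their bounds, counted without regard to strand. SNHG14 held 83, all of box C/D type, among them the SNORD116 and SNORD115 clusters, and GAS5 held 11 (10 of box C/D, 1 of box H/ACA). Among the 166 LINC genes, LINC00888 alone held any. Since poly(A) selection does not target snoRNAs, the values below measure the long transcripts. The table lists 3 snoRNA or Cajal body RNA rows, SNORA33, SNORD62B and SNORD104, with means of 4.60, 5.49 and 3.97 normalized counts. The snoRNAs below lie within the 2 host genes on which the results turn. Capitals mark the first match to TGATGA, letters of box C, and the last match to CTGA, letters of box D. In SNORD115-1 a second TGATGA overlaps the marked match, so the capitals do not fix the place of its box C.
SNORD116-1 (within SNHG14, chr15:25051476-25051572, plus strand): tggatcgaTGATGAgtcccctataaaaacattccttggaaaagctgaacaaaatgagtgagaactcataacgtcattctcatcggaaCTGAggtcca
SNORD115-1 (within SNHG14, chr15:25170723-25170804, plus strand): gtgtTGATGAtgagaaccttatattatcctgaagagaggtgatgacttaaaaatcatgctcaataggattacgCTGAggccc
SNORD49A (within SNHG29, chr17:16440036-16440106, plus strand): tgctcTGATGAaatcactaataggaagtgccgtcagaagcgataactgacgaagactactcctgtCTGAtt

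The contrast asked which of these noncoding transcripts differ between isoproterenol-treated and untreated neurons depleted of RBM12. SNHG14 was higher with isoproterenol by a factor of 1.14, SNHG29 was lower by a factor of 1.08, and both passed the test only when same-numbered samples were compared with each other. Among LINC genes, LINC00645, LINC02762 and LINC00599 were higher and LINC00641, LINC00205 and LINC02593 lower by the same test. The rest of both classes did not pass it. The host genes had a median log2 fold change of -0.053 and the LINC genes of 0.0086, beside 0.0015 over all 18130 genes.

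In limma on log2(normalized count + 1), 0 of the 19 host genes and 0 of the 166 LINC genes passed FDR 0.05, where 0.0165% of all genes tested did (3 genes). The smallest adjusted p was 0.273 among host genes (SNHG14) and 0.272 among LINC genes (LINC00645). At an unadjusted p under 0.05 there were 1 host gene and 13 LINC genes (7.83%), near the 7.68% of all genes. edgeR and DESeq2 without the pairs also called 0 of the 185. Same-numbered samples deviated alike from their group means, a pairing inferred from these values that no label states. On that assumption limma was also fitted with the replicate number as a block. In the fit with the replicate block, 4.88% of all genes passed (885 genes), 2.82% higher and 2.06% lower. There 2 of 19 host genes passed (1 higher, 1 lower) and 6 of 166 LINC genes (3 higher, 3 lower), which is 3.61% of the LINC genes and 4.32% of the 185. At an unadjusted p under 0.05 the blocked fit held 3 host and 25 LINC genes (15.1% of the LINC genes), beside 16.2% of all genes. edgeR with the block gave the same counts in each class and direction.

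The 3 isoproterenol values lay above the 3 untreated ones in 1 host gene and in 12 LINC genes (7.23%), beside 6.73% of all genes. They lay below in 0 host genes and in 9 LINC genes (5.42%), beside 6.19% of all genes. Of the LINC genes, 37 (22.3%) were higher and 33 (19.9%) lower in every same-numbered pair, beside 18.5% and 17.6% of all genes. Of the host genes, 2 were higher and 4 lower in every pair. For a single gene, an exact permutation test of 3 samples against 3 cannot give a two-sided p below 0.1.

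Of the host genes, 13 of 19 (68.4%) had a log2 fold change below 0, beside 49.5% of all genes tested, 51.2% of the 11587 genes with a mean of at least 100 and 48.2% of the LINC genes. The difference of the medians, host minus LINC, was -0.061. Within pairs 1, 2 and 3 the host medians were -0.0066, -0.041 and -0.077, the LINC medians 0.016, 0.015 and -0.0088, and their differences -0.023, -0.056 and -0.068. The host median shrank to -0.0012 without untreated replicate 3 and to -0.0014 without isoproterenol replicate 2. These medians are a description with no test, and the genes of a class are not replicates.

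**Figure D1:**
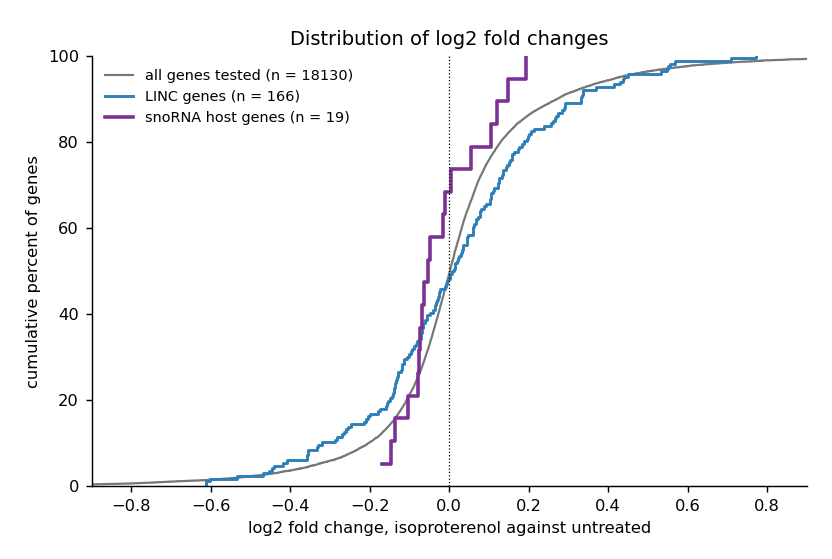
Cumulative percent of genes (y axis) against the log2 fold change, isoproterenol against untreated (x axis), for the 19 host genes, the 166 LINC genes and all 18130 genes tested, shown between -0.9 and 0.9. The host genes span -0.17 to 0.19 and their curve lies left of 0 for 13 of 19, while the LINC genes span -0.61 to 0.77 around 0.

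SNHG14 (ENSG00000224078; chr15:24978583-25420336, plus strand, GRCh38) is the long, paternally expressed transcript of the Prader-Willi and Angelman region, which in neurons runs through its snoRNA clusters and antisense to UBE3A. Untreated replicates 1 to 3 had 13922, 12199.8 and 13786 normalized counts, and isoproterenol replicates 1 to 3 had 15930.2, 14455 and 15199. All isoproterenol values lay above all untreated values. The means were 13303 ± 958 and 15195 ± 738 (SD, n = 3 per group), a log2 fold change of 0.19 (SE 0.049). In limma its adjusted p was 0.273, which the replicate block turned into 2.91e-13, and with the block it passed without pair 1, pair 2 or pair 3 alike (adjusted p 5.69e-11, 6.89e-09 and 1.80e-14). The blocked fit leaves 2 residual degrees of freedom per gene, so its small p-values draw on a spread shared with other genes of like level.

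SNHG14 alone made up 56.7% to 60.9% of the counts of the 19 host genes in untreated samples and 61.2% to 65.3% after isoproterenol. The annotated exons of the gene span 122609 bases, so that per kilobase it ranked below SNHG29, SNHG6, GAS5, SNHG1 and SNHG30. Of its exon bases, 10965 are shared with other genes on the same strand and 3198 with genes on the opposite strand. SNRPN, the protein-coding gene from whose region the transcript starts, had 219, 194 and 219 normalized counts in the untreated samples and 240.5, 223 and 281 after isoproterenol (log2 fold change 0.23, SE 0.11, limma adjusted p 0.655, and 0.210 with the block). The SNRPN values did not overlap between groups. UBE3A, the ubiquitin ligase gene on the opposite strand, had a log2 fold change of 0.019 (SE 0.047, limma adjusted p 0.955). Whether reads were counted by strand is not stated, so reads in shared bases cannot be assigned to 1 gene.

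SNHG29 (chr17:16438767-16480249, plus strand) holds 3 box C/D snoRNAs and had the highest level per kilobase of the host genes, 387 normalized counts per kilobase of exon. Untreated replicates 1 to 3 had 3514, 3707 and 3525 normalized counts, and isoproterenol replicates 1 to 3 had 3190.0, 3692 and 3136. The groups overlapped, because isoproterenol replicate 2 lay above 2 untreated values. The means were 3582 ± 108 and 3339 ± 306 (SD, n = 3 per group), a log2 fold change of -0.10 (SE 0.056, limma adjusted p 0.683). With the block it passed (adjusted p 0.0271). Its pair differences were -0.14, -0.0060 and -0.17 on the log2 scale, and the call was lost without pair 1 (limma adjusted p 0.241) or pair 3 (0.429) but not without pair 2 (0.00370). LRRC75A, which shares 500 exon bases with SNHG29 on the opposite strand, had 197, 167 and 156 normalized counts in the untreated samples and 262, 198 and 239 after isoproterenol. LRRC75A rose in the fit with the block (limma adjusted p 0.00680, and 0.389 without it). Its log2 fold change was 0.42 (SE 0.13 without the block).

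GAS5 (chr1:173858559-173868882, minus strand), a growth arrest transcript whose introns carry snoRNAs, had 868, 1028 and 1016 normalized counts in the untreated samples and 781, 999 and 855 after isoproterenol. The isoproterenol value was the lower in every pair, while the groups overlapped. Its log2 fold change was -0.15 (SE 0.087, limma adjusted p 0.733, and 0.0865 with the block), and the pair differences were -0.15, -0.041 and -0.25. Without pair 2 it passed in the fit with the block (log2 fold change -0.20, adjusted p 0.0478). SNHG6, which holds 1 box C/D snoRNA, had 486, 526 and 556 normalized counts in the untreated samples and 443, 498 and 485 after isoproterenol. It too was lower in every pair and overlapped between groups (log2 fold change -0.14, SE 0.080, limma adjusted p 0.722, and 0.312 with the block).

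**Figure D2:**
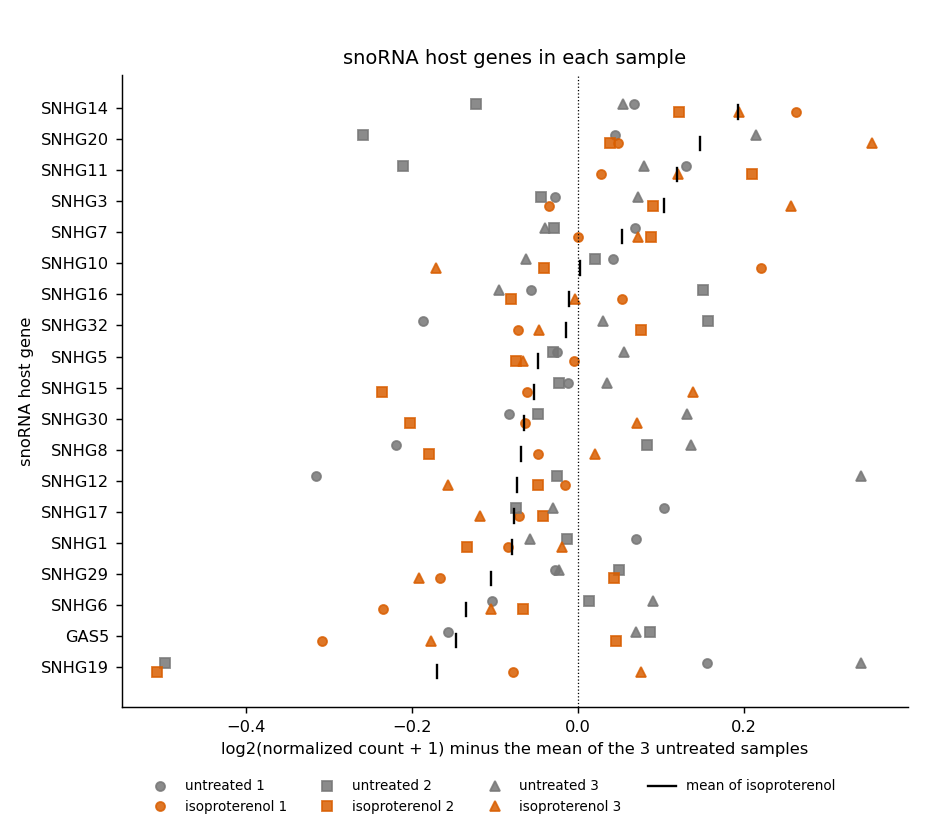
Level of each of the 19 snoRNA host genes (y axis, ordered by log2 fold change) in each sample, as log2(normalized count + 1) minus the mean of the 3 untreated samples (x axis), with shapes for replicate numbers and a tick at the isoproterenol mean. The orange isoproterenol points of SNHG14 all lie right of its grey untreated points, and in the other 18 genes the groups overlap.

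The other host genes of box C/D snoRNAs were SNHG1, SNHG5, SNHG16, SNHG19, SNHG30 and SNHG32. Their log2 fold changes ran from -0.17 (SNHG19) to -0.010 (SNHG16), and none (0) passed FDR 0.05 in limma with or without the block. SNHG5 had 858 ± 29.1 normalized counts in the untreated samples and 829.6 ± 22.2 after isoproterenol, and SNHG1 548 ± 24.9 and 519 ± 20.7 (SD, n = 3 per group). SNHG16 had 446 ± 41.9 and 442 ± 20.6, SNHG32 207 ± 24.5 and 204 ± 11.4, and SNHG30 199.6 ± 16.3 and 191 ± 18.1. In SNHG16, SNHG30 and SNHG32 the difference was smaller than the SD of either group. In SNHG5 it exceeded the isoproterenol SD only, and in SNHG1 the SD of both groups. In all, 8 of the 9 genes that hold box C/D snoRNAs alone had a log2 fold change below 0 (median -0.065), SNHG14 being the exception. Of all genes tested, 49.5% lay below 0. Among the 8, SNHG29 alone passed with the block, and SNHG16, SNHG19, SNHG30 and SNHG32 changed sign when 1 sample was left out. A difference between box types was not tested.

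The hosts of box H/ACA snoRNAs were SNHG3, SNHG7, SNHG8, SNHG11, SNHG15 and SNHG17, and 3 of these 6 were above 0 (median 0.00045). SNHG11 had 264 ± 32.6 and 285 ± 17.9 normalized counts, a log2 fold change of 0.12 (SE 0.11, limma adjusted p 0.835), SNHG3 128 ± 5.76 and 138 ± 14.1 (0.10), and SNHG7 487 ± 20.4 and 506 ± 16.4 (0.054). SNHG15 had 299 ± 6.38 and 289.8 ± 37.9 (-0.053), SNHG8 247 ± 31.7 and 235 ± 16.4 (-0.069), and SNHG17 144 ± 9.47 and 136 ± 3.64 (-0.077). None (0) of the 6 passed FDR 0.05 in limma with or without the block. SNHG12, which like GAS5 holds both box types, ranged from 67.9 to 108 in the untreated samples and from 75.9 to 83.8 after isoproterenol. SNHG10 and SNHG20, which hold small Cajal body RNAs, had log2 fold changes of 0.0031 (SE 0.21) and 0.15 (SE 0.16). SNHG20 was higher in every pair and reached 132 in isoproterenol replicate 3, beside 86.1 to 120.0 in untreated samples, with a limma adjusted p of 0.875 (0.694 with the block).

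The terminal oligopyrimidine start was searched in the RefSeq promoter windows, which run from 250 bases before to 50 bases after an annotated start. It was taken as a C at the start followed by at least 4 C or T. Windows were found for 17 host and 119 LINC genes. Such a start stood in 4 host windows (23.5%) and 5 LINC windows (4.20%), beside 4.07% of all 35116 windows. The first 25 bases of the 4 host transcripts are given because the pyrimidine run, in capitals, is the feature by which these genes resemble ribosomal protein genes.
SNHG12 (chr1:28581849-28581873, minus strand): CCTTTCTCCCCgccgcattcccggt
SNHG19 (chr16:2155334-2155358, minus strand): CTTTTCggggtcgagtccgaggggg
SNHG32 (chr6:31834916-31834940, plus strand): CTTTTTgcgaagtgggctcgtgggt
SNHG5 (chr6:85678709-85678733, minus strand): CTTTTacgtcggccttcgcgagcgt

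All 4 of these genes had a log2 fold change below 0 (median -0.061), as did 7 of the 13 other host genes with a window (median -0.010). Of all genes tested, 49.5% did. Only 1 annotated start per host gene was searched, so the 13 others, GAS5 and SNHG1 among them, are not shown to lack such a tract. None (0) of the 4 passed FDR 0.05 in limma with or without the block, and their changes ran from -0.17 (SNHG19, SE 0.25) to -0.015 (SNHG32, SE 0.12). SNHG19 had 55.3, 34.8 and 63.1 normalized counts in the untreated samples and 46.9, 34.6 and 52.3 after isoproterenol, lower in every pair with overlapping groups. A match to these letters is a description of the annotated start and was not tested against the changes.

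The other snoRNA host genes listed here carry snoRNAs under other names, most of them coding for ribosomal proteins, translation factors or nucleolar proteins. Of the 19 listed, 18 were tested. Of the 18, 15 (83.3%) had a log2 fold change below 0, beside 49.5% of all genes tested, with a median of -0.062. With the block, 6 fell and 0 rose past FDR 0.05 in limma, beside 2.06% and 2.82% of all genes, and without it none (0) passed. NCL, which encodes nucleolin, had 8704, 8638 and 8626 normalized counts in the untreated samples and 7459, 7743 and 7709 after isoproterenol. All isoproterenol values of NCL lay below all untreated values (log2 fold change -0.18, SE 0.037, limma adjusted p 0.116, and 2.40e-09 with the block). The ribosomal protein genes RPL13A (-0.13), RPL23A (-0.12) and RPS3 (-0.100) also fell with the block (limma adjusted p 7.40e-05, 0.0107 and 0.0166), as did TOMM20 (-0.092, adjusted p 0.0207), which encodes a mitochondrial import receptor. These 3 ribosomal protein genes have near-identical copies in the genome, so their counts are uncertain. Among noncoding hosts of this list, ZFAS1 had a log2 fold change of -0.056 (SE 0.15), EPB41L4A-AS1 of 0.024 (SE 0.082) and DANCR of 0.097 (SE 0.11). The list was drawn up with results of these data known, so its count is no independent evidence of a direction.

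**Figure D3:**
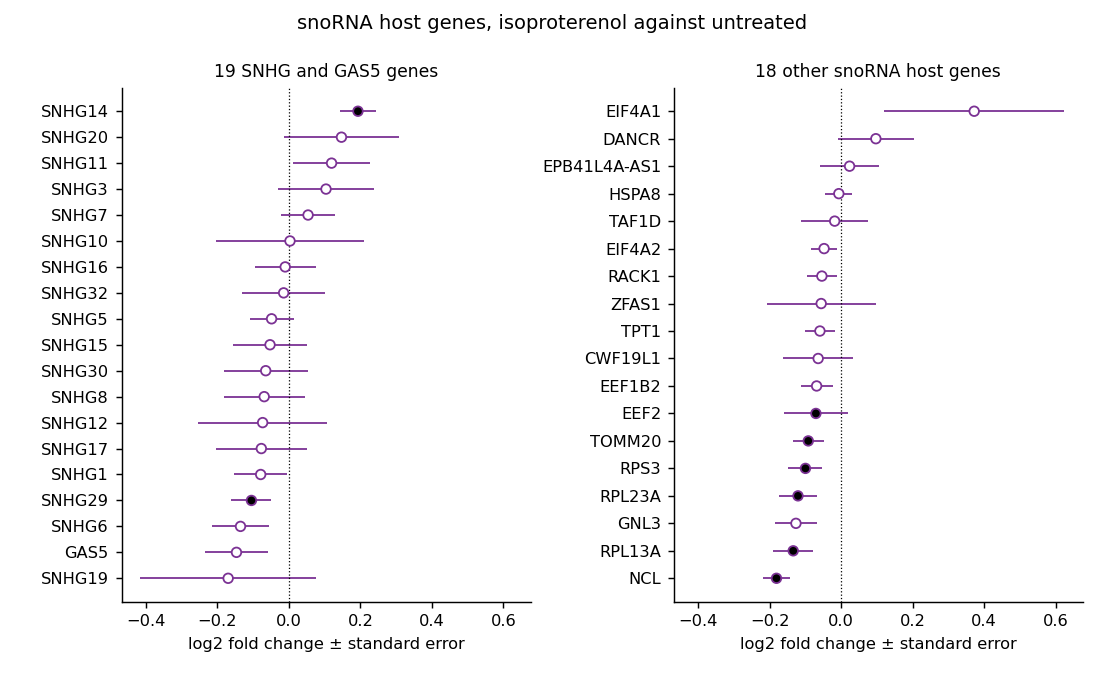
Log2 fold change (x axis) with its standard error (bars, limma without the block) for the 19 host genes named SNHG or GAS5 (left) and the 18 other snoRNA host genes tested (right), with filled points for an adjusted p under 0.05 in limma with the replicate block. On the left SNHG14 and SNHG29 are filled, on opposite sides of 0, and on the right 6 points are filled, all below 0.

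Of 19 genes whose proteins form and assemble snoRNA particles, all tested, 10 had a log2 fold change above and 9 below 0 (median 0.00085). The isoproterenol values lay below all untreated ones in 4 of them and above in 0, beside 6.19% and 6.73% of all genes. With the block 2 fell and 0 rose past FDR 0.05, beside 2.06% and 2.82% of all genes, and without it none (0) passed. PIH1D1 and RUVBL2 belong to the R2TP complex that helps assemble box C/D particles. They had log2 fold changes of -0.23 (SE 0.076) and -0.14 (SE 0.057). Their limma adjusted p was 0.0202 and 0.0106 in the blocked fit and 0.456 and 0.581 without the block. In RUVBL1 and RPAP3, of the same complex, the changes were 0.057 and 0.00085 (limma adjusted p 0.644 and 0.994 with the block). FBL, the methyltransferase of box C/D particles, had 363, 299 and 351 normalized counts in the untreated samples and 371, 322 and 391 after isoproterenol (log2 fold change 0.097, SE 0.10). DKC1, the pseudouridine synthase of box H/ACA particles, had a log2 fold change of 0.013 (SE 0.077).

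Of the 15 nonsense-mediated decay genes listed and tested, 10 were above and 5 below 0 (median 0.012), and with the block 1 rose and 2 fell, beside 2.82% and 2.06% of all genes. Without the block none (0) of the 15 passed, with limma adjusted p of 0.596 for SMG1, 0.495 for UPF3B and 0.658 for RBM8A. SMG1, the kinase of the pathway, rose with the block (limma adjusted p 0.00976), with a log2 fold change of 0.12 (SE 0.050 without the block). In the same blocked fit UPF3B (-0.21, limma adjusted p 0.0310) and RBM8A (-0.097, limma adjusted p 0.0422) fell. UPF1, the central helicase, had a log2 fold change of 0.0019 (SE 0.053). Of 18 listed long noncoding RNA genes with other names, MIR124-1HG is LINC00599 and is counted with the LINC genes below. Of the others, 12 were tested, 6 above and 6 below 0 (median -0.0014). Of these 12, 0 passed FDR 0.05 in limma with or without the block. MALAT1, a nuclear retained RNA, had 8253, 6792 and 6579 normalized counts in the untreated samples and 5921, 6129.6 and 6328 after isoproterenol, without overlap (log2 fold change -0.23, SE 0.081, limma adjusted p 0.595, and 0.563 with the block).

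LINC00645 (chr14:27612577-27639636, plus strand) had the largest rise of the 185 genes. Untreated replicates 1 to 3 had 63.7, 38.7 and 53.8 normalized counts, and isoproterenol replicates 1 to 3 had 96.8, 84.2 and 83.1, without overlap. The means were 52.1 ± 12.6 and 88.0 ± 7.61 (SD, n = 3 per group), a factor of 1.71 (log2 fold change 0.77, SE 0.20). It passed FDR 0.05 with the block (limma adjusted p 0.00306, and 0.272 without it), and the call was lost without pair 2 (adjusted p 0.104). The nearest tested protein-coding gene, NOVA1, lies 1014544 bases away and had a log2 fold change of 0.056 (SE 0.046).

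LINC00599 (chr8:9899871-9919233, minus strand) is the host transcript of the neuronal microRNA miR-124 and is named MIR124-1HG in GENCODE. It had 648, 516 and 626 normalized counts in the untreated samples and 668, 602 and 783 after isoproterenol. The values were higher in every pair but overlapped between groups (log2 fold change 0.20, SE 0.10, limma adjusted p 0.680, and 0.0453 with the block). Without pair 2 or pair 3 the blocked call was lost (adjusted p 0.155 and 0.497). LINC02762 (chr11:112270748-112362534, plus strand) had 663, 493 and 580.3 normalized counts in the untreated samples and 761, 560.5 and 673 after isoproterenol. Its pair differences were close to each other, 0.20, 0.19 and 0.21 on the log2 scale, although the groups overlapped (SE 0.13, limma adjusted p 0.771, and 0.0389 with the block). That call was lost without pair 1, 2 or 3 (adjusted p 0.165, 0.0855 and 0.196).

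The LINC genes that fell with the block were among the most abundant. LINC00205 (chr21:45288035-45297806, plus strand) had the highest mean of the LINC genes. It had 5963, 6570.2 and 5980.2 normalized counts in the untreated samples and 5805, 5929 and 5558 after isoproterenol, without overlap (log2 fold change -0.098, SE 0.045, limma adjusted p 0.632, and 0.00968 with the block). LINC00641 (chr14:21200079-21206900, minus strand) had 3514, 3758 and 3409 in the untreated samples and 3289.8, 3534 and 3024 after isoproterenol, lower in every pair with overlapping groups (log2 fold change -0.12, SE 0.055, limma adjusted p 0.635, and 0.00749 with the block). LINC02593 (chr1:916865-921016, minus strand) had 1219, 1456 and 1164 in the untreated samples and 1125, 1289 and 1061 after isoproterenol, also lower in every pair with overlapping groups (log2 fold change -0.14, SE 0.089, limma adjusted p 0.750, and 0.0481 with the block).

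Leaving out pairs ended these 3 calls as well. LINC00205 did not pass without pair 2 or pair 3 (limma adjusted p 0.247 and 0.104), LINC00641 without pair 3 (0.240), and LINC02593 without pair 1, 2 or 3 (0.106, 0.264 and 0.173). The nearest tested protein-coding genes did not share these changes past the threshold. HNRNPC, 2236 bases from LINC00641, had a log2 fold change of -0.040 (SE 0.045) and SAMD11, 2907 bases from LINC02593, of -0.014 (SE 0.066). POFUT2, 137 bases from LINC00205 on the opposite strand, had 854, 761 and 769 normalized counts in the untreated samples and 819, 899.5 and 937 after isoproterenol (log2 fold change 0.16, SE 0.070, limma adjusted p 0.620, and 0.0935 with the block).

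**Figure D4:**
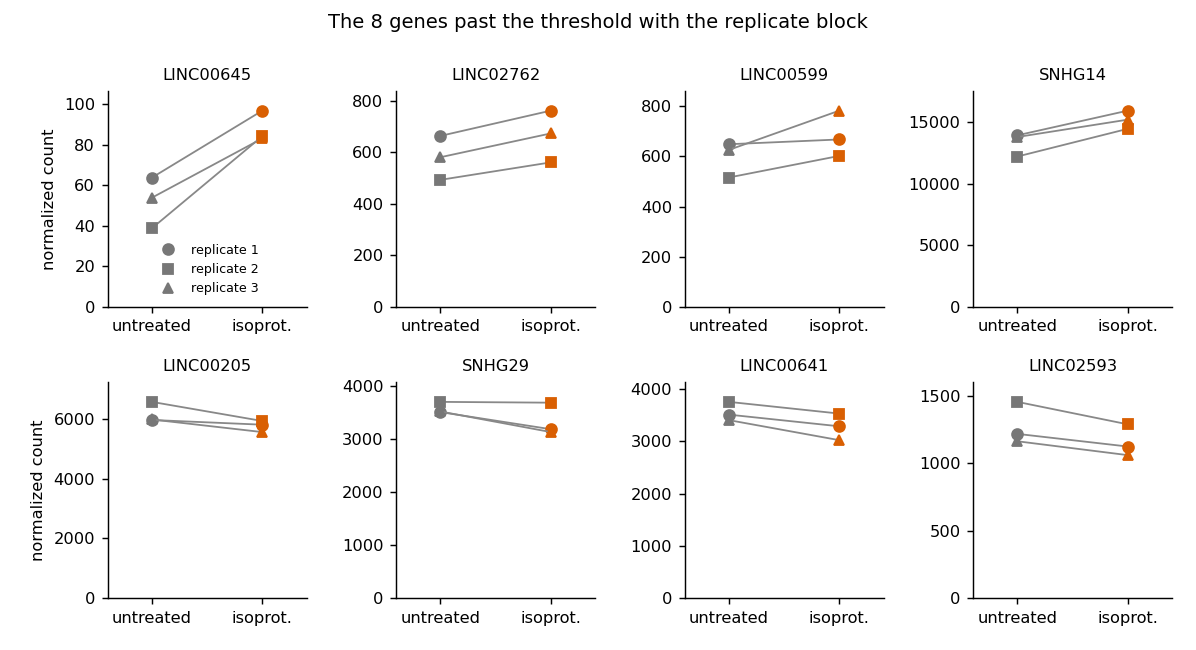
Normalized counts (y axis, from 0) of the 8 genes past FDR 0.05 in limma with the replicate block, in the untreated samples and isoproterenol samples (x axis), with a line joining the samples of 1 replicate number. SNHG14, LINC00645 and LINC00205 separate the groups, and in the other 5 genes the lines share a direction while the groups overlap.

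Other LINC genes had larger changes at low levels. Among those whose groups did not overlap, the largest rises after LINC00645 were of LINC02846 (25.3 ± 5.78 to 37.5 ± 5.38 normalized counts, log2 fold change 0.57), LINC00685 (18.0 ± 3.16 to 26.7 ± 2.16, 0.55), LINC01252 (38.3 ± 6.63 to 55.5 ± 5.45, 0.53) and LINC00960 (60.9 ± 2.82 to 78.5 ± 19.3, 0.34). The largest falls were of LINC02353 (41.5 ± 2.94 to 26.9 ± 3.85, -0.61), LINC01140 (47.3 ± 5.50 to 34.8 ± 6.38, -0.44), LINC01315 (88.9 ± 5.28 to 69.4 ± 9.19, -0.36), LINC00858 (63.1 ± 4.63 to 49.1 ± 5.41, -0.36) and LINC01166 (54.7 ± 2.19 to 45.7 ± 4.01, -0.26; SD, n = 3 per group throughout). None (0) of these 9 genes passed FDR 0.05 in limma with or without the block.

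The size of the changes followed the level. The 59 LINC genes with means of 20 to 50 had a median absolute log2 fold change of 0.24, beside 0.20 over the 2076 genes tested in this band, and 0 of them passed with the block. The 27 LINC genes with means of at least 500 had a median absolute change of 0.087, beside 0.047 over 7140 genes, and 5 of them (18.5%) passed with the block, beside 9.22% of all genes in the band. The median SD within groups was 0.34 on the log2 scale for LINC genes in the low band and 0.075 in the high one. Of the 5 host genes with means of at least 500, 2 passed.

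**Figure D5:**
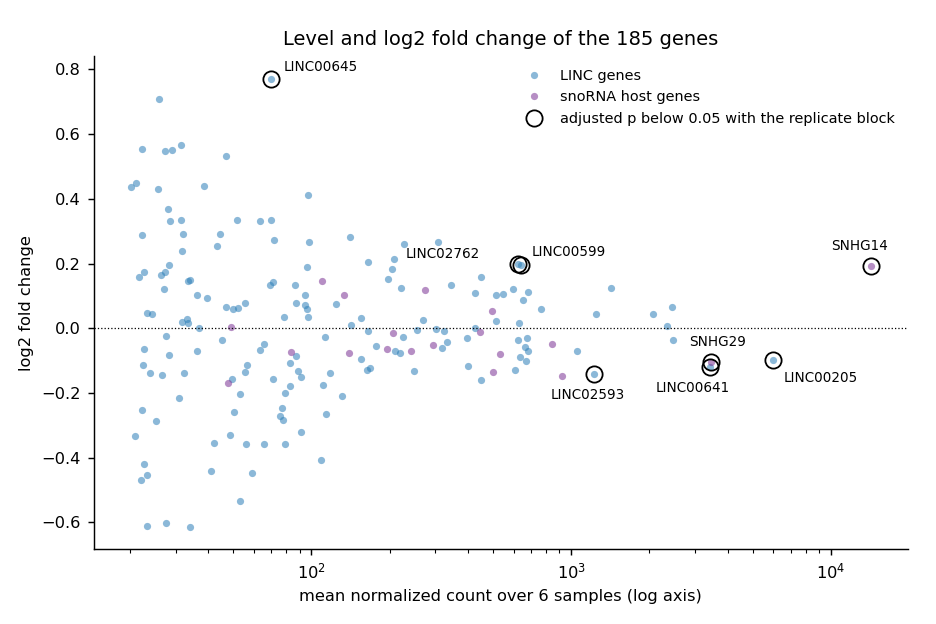
Log2 fold change (y axis) against the mean normalized count over 6 samples (x axis, log scale) for the 166 LINC and 19 host genes, with circles around the 8 genes past FDR 0.05 in limma with the replicate block. Changes fan out toward low means, and 7 of the 8 circled genes have means of at least 500, LINC00645 being the exception.

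Per kilobase of exon, the median level was 76.9 normalized counts for host genes, 24.1 for LINC genes and 61.0 for all genes tested. The 5 LINC genes highest per kilobase were LINC00888 (1571), LINC00674 (1273), LINC02495 (1265), LINC01145 (1176) and LINC00205 (782). The first 4 are annotated in GENCODE 44 as transcribed pseudogenes with 421, 160, 242 and 143 exon bases and share exon bases with a second gene entry, so their levels per kilobase depend on that annotation. LINC02495 had 321, 225 and 292 normalized counts in the untreated samples and 320.3, 329.8 and 349 after isoproterenol, a log2 fold change of 0.27 (SE 0.11, limma adjusted p 0.596, and 0.0626 with the block). LINC00674 did not overlap between groups (191 ± 12.6 and 216 ± 3.78, limma adjusted p 0.725). LINC00888 had 674 ± 32.7 and 648 ± 35.3, and LINC01145 176 ± 17.6 and 161 ± 11.1, with overlapping groups.

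Of the LINC genes, 155 are annotated as long noncoding RNAs, 9 as pseudogenes and 2 as protein-coding, and 17 of the 185 genes carry another name in GENCODE 44. Exon bases are shared with another annotated gene in 81 LINC genes, in 66 of them on the opposite strand. All 19 host genes share exon bases, with their own snoRNAs or with neighbouring genes, and 10 of them with a gene on the opposite strand.

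At the level threshold, LINC00622 (mean 20.1) and LINC00926 (20.9) lay just inside and LINC00449 and LINC01001 (both 19.3) just outside. LINC00622 ranged from 5.17 to 27.1 normalized counts in the untreated samples and from 11.5 to 27.7 after isoproterenol. Among host genes, SNHG19 (47.8) and SNHG10 (48.9) were the lowest inside, and SNHG4 (17.3) and SNHG9 (17.0) the nearest outside. SNHG4 ranged from 6.77 to 24.8 and SNHG9 from 8.98 to 22.3 over the 6 samples.

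The cAMP response element, bound by CREB, was searched as TGACGTCA on both strands of the promoter windows. It was found in 0 of 17 host windows and in 2 of 119 LINC windows (1.68%), beside 1.85% of all windows. The 30 bases around each match are shown because CREB is the factor through which cAMP reaches many promoters, with the element in capitals.
LINC00265 (chr7:39733359-39733388, plus strand, 198 bases before the start): cccagctaccgTGACGTCAcgagacccccg
LINC00630 (chrX:102769115-102769144, plus strand, 27 bases before the start): ccatagtaaccTGACGTCAtattagcgacg

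LINC00265 had 186, 212 and 222 normalized counts in the untreated samples and 247, 253 and 242 after isoproterenol, without overlap (log2 fold change 0.26, SE 0.11, limma adjusted p 0.595, and 0.128 with the block). LINC00630 had 165, 142 and 118 in the untreated samples and 125, 115 and 124 after isoproterenol (log2 fold change -0.21, SE 0.14, limma adjusted p 0.775). The shorter site TGACG, which the full element contains, stood in 6 host windows (35.3%) and 33 LINC windows (27.7%), beside 24.6% of all windows. The AP-1 site TGANTCA stood in 0 host and 7 LINC windows (5.88%), beside 7.71% of all, and the E-box CACGTG in 2 host and 10 LINC windows (11.8% and 8.40%), beside 7.26% of all. The windows of SNHG14 and SNHG29 held none of these motifs.

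The study's list of isoproterenol targets, chosen on libraries of neurons from a modified line, holds 9 of the 185 genes. These are SNHG12, SNHG15 and SNHG17 among host genes and LINC00342, LINC00599, LINC01315, LINC01578, LINC01896 and LINC02298 among LINC genes. In these samples 457 of the 658 listed genes that were tested (69.5%) had a log2 fold change above 0. Of the 9, 3 lay above 0, namely LINC02298 (0.27, SE 0.19), LINC00599 (0.20) and LINC00342 (0.087, SE 0.082). LINC00599 was the only one of the 9 to pass FDR 0.05 in limma with the block, and without it none (0) passed. Of the 658 listed genes tested, 112 were higher past FDR 0.05 in limma with the block.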

How the data were processed

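Poly(A) RNA was sequenced from 3 untreated and 3 isoproterenol-treated RBM12 knockdown samples. Reads were aligned to GRCh38 with STAR and counted per gene with featureCounts. The deposited signal is the count divided by a DESeq2 size factor per sample, as computed by the authors. Versions, annotation release and strand setting are not given in the sources used here. Each column held whole multiples of 1 step (within 0.01 of a read for 100% of values), which gave back reads.

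Genes with over 5 reads in at least 4 samples were tested with limma 3.58.1 (R 4.3.3; trend, robust) on log2(normalized count + 1), with Benjamini-Hochberg adjustment over 18130 genes, two-sided. The added 1 shrinks fold changes of low genes. Deviations of same-numbered samples from group means correlated at 0.269, 0.493 and 0.388 over 11587 genes with means of at least 100, all above 0.1. Their mean was 0.383, beside -0.195 to 0.163 for other matchings of the samples. The pairing is thus inferred from the same values, with few matchings to compare, and calls with the block rest on it. A second fit took the replicate number as a block, and its values stand beside calls that it changed. Every SE given is from limma without the block. Alternatives were edgeR 4.0.16 and DESeq2 1.42.0 on recovered reads, other scalings, pseudocounts, filters and membership rules, and leaving out samples. Tests were checked on simulated counts. Positions, exon lengths and overlaps are from GENCODE 44 and snoRNAs, promoters and sequences from RefSeq (GRCh38.p14).

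Named are every host gene, LINC genes that passed with or without the block, the 5 highest per kilobase, the 5 largest rises and falls without overlap, and the genes next to the threshold; of the other lists, genes that passed, at most 5 each. Other genes were named after their values were seen. A gene of the list of other snoRNA hosts is not reported here and stays out of its counts. Members and lists were chosen with earlier results of these data known.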

Additional observations from a re-analysis of the deposited data

How the results depend on the processing

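With the replicate block, limma called 885 genes, 2 host and 6 LINC genes, and edgeR called 977, 2 and 6, against 3, 0 and 0 without the pairs. DESeq2 without the pairs called 23 genes and 0 of the 185. Leaving out 1 sample gave 2 to 67 genes (67 without isoproterenol replicate 2) and 0 host or LINC genes, by fits that need no pairing. In an alternative added after seeing the data, the blocked fit without 1 pair called 456 (without pair 3), 531 (pair 1) and 665 (pair 2) genes, 1 to 3 host and 1 to 7 LINC genes. SNHG14 passed in each of these 3 fits. The LINC median was -0.0070 for the 66 LINC genes with means of at least 100.

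Over the samples left out in turn, the host median ran from -0.066 to -0.0012, the LINC median from -0.0087 to 0.016 and their difference from -0.070 to -0.0038. No host gene (0) lacked a shared exon base, so that alternative gave no host median or difference. Of 40 named genes, 32 kept their sign in every alternative. The other 8 turned only when 1 sample was left out, over which SNHG12 ran from -0.23 to 0.097, SNHG32 from -0.11 to 0.064, SNHG15 from -0.15 to 0.039, SNHG10 from -0.11 to 0.090, SNHG19 from -0.42 to 0.00097, SNHG30 from -0.13 to 0.0039, SNHG16 from -0.058 to 0.065 and LINC00622 from -0.25 to 0.85. The cause was not tested. Among the LINC genes with means of 20 to 50, the median SD within groups (0.34) exceeded the median absolute log2 fold change (0.24).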

Other observations

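Below the level of 20 normalized counts lay 182 genes with matching names, of which 124 were tested. None (0) of them passed FDR 0.05 in limma with or without the replicate block. When the blocked fit left out 1 pair, 6 further genes passed. These were LINC02495 (log2 fold change 0.40), LINC00632 (0.30) and LINC00663 (-0.89) without pair 1, GAS5 (-0.20) without pair 2, and LINC01833 (0.18) and LINC01002 (0.63) without pair 3. They were named after their values were seen.

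The counts of the 19 host genes summed to 21531 to 23086 normalized counts in untreated and 23605 to 24399 in isoproterenol samples, without overlap. Without SNHG14 the sums were 8947 to 9332 and 8469 to 9150.0, with overlap. The 166 LINC genes summed to 47801 to 49632 and 47138 to 49346.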
